A study of Mus musculus with 8 samples.

Results

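The miR-34 and miR-449 family comprised 7 mature mouse miRNAs on the arrays: miR-34a, miR-34b-5p, miR-34b-3p, miR-34c, miR-449a, miR-449b and miR-449c. They were chosen by name, with every probe of each name taken and the star strands left out, from 611 mouse miRNAs in all. Of these 7, 4 were detected on at least 3 arrays and were tested (miR-34a, miR-34b-5p, miR-34c and miR-449a), among 199 mouse miRNAs tested. The study profiled miRNAs in primary mouse oligodendrocyte cultures on 8 one-colour Agilent arrays, to compare immature with mature cells. The cells came from C57BL/6J mice carrying CNP-Cre, Cre recombinase driven by the promoter of Cnp, a gene active in oligodendrocyte lineage cells, and every group carried it. They were shaken off mixed cultures and grown in DMEM with B27, horse serum and thyroid hormones, for 0 days (3 arrays), 1 day (2 arrays) or 6 days (3 arrays). The day 0 and day 1 cultures are called immature and the day 6 cultures mature. The sample labels call the immature cultures day 0 and day 1, whereas the series text counts them as 1 and 2 days in culture, and the days here are those of the sample labels. The series text calls the samples of a day independent without naming animals or litters, so the p-values measure the spread between these samples, which may be partly technical.

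A miRNA guides a silencing complex to mRNAs that pair with its seed, bases 2 to 8 of the mature strand. miR-34a, and miR-34b and miR-34c, which are made from one shared transcript, are induced by the tumour suppressor p53 and repress genes that drive the cell cycle. miR-34b, miR-34c and the miR-449 miRNAs are abundant in multiciliated cells, which in the brain include the ependyma and the choroid plexus, and are needed there for the formation of motile cilia. miR-34b-3p is the opposite arm of the miR-34b hairpin and has a different seed.

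The mature sequences are shown because the seed is what makes these miRNAs a family. They are RefSeq entries on build GRCm38.p6, printed 5′ to 3′ with the seed in capitals, and 5 of the 7 names matched an entry (miR-34c and miR-449b are named only).
mmu-miR-34a: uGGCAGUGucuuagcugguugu
mmu-miR-34b-5p: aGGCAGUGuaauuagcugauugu
mmu-miR-449a: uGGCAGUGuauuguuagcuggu
mmu-miR-449c: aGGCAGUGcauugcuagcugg
mmu-miR-34b-3p: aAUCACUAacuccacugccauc
The first 4 shared the seed GGCAGUG, and they were the only ones to hold it among the 1679 mature mouse names of the table, which is not complete. The seed of miR-34b-3p, AUCACUA, was held by 2 of them. Compared base by base from the 5′ end, miR-449a and miR-449c matched at 18 of 21 positions, miR-34a and miR-449a at 15 of 22, miR-34a and miR-34b-5p at 11 of 22, and miR-34b-5p and miR-449a at 10 of 22. By this count the match was greater within the miR-449 pair than between miR-34a and miR-34b-5p. The count allowed no gaps, and miR-34b-5p has 23 bases against 22 for miR-34a, so it can understate their likeness. Whether probes of one member also bound another was not tested.

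The miR-34b hairpin shows how 2 of the members arise from 1 precursor. It lies at chr9:51103562-51103645 on the minus strand, and its arms, miR-34b-5p first and miR-34b-3p second, are in capitals.
mmu-mir-34b: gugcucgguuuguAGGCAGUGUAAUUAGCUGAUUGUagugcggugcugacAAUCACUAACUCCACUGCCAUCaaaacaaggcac
The miR-34c hairpin lies at chr9:51103034-51103110, 451 bases from it, and both lie within the annotated spans of the genes Btg4 and Hoatz. The miR-34a hairpin lies alone at chr4:150068454-150068555 on the plus strand and overlaps no other gene of the annotation table. On chromosome 13 the hairpins of miR-449c (chr13:113035983-113036091), miR-449b (chr13:113037419-113037498) and miR-449a (chr13:113037534-113037624) lie within the span of Cdc20b, with 1327 and 35 bases between neighbours. Whether these positions are exonic or intronic was not analysed here.

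Each value is a log2 level: the scanner's processed spot intensity, averaged over the spots of a probe, scaled to the other arrays and taken to log2, for the brighter probe of each miRNA. Levels below 4.20, a scaled signal of 18.4, were set to that floor. A probe counted as detected where the scanner software marked a share of 0.5 or more of its spots as well above background. The arrays detected 150 to 218 miRNAs, except day 0 replicate 1, which detected 61. On that array the spread of the negative control spots (median absolute deviation) was 30.2, against 2.54 to 3.88 on the others, and its lowest detected scaled signal was 200.4, against 11.8 to 24.4. The day 0 means and the main differences from day 0 are given with and without it. No spot was saturated. The 7 oligodendrocyte miRNAs of a marker list were all tested, and 6 or 7 of them were detected on each day 6 array. On day 0, 2 were detected on replicate 1 and 7 and 6 on the others, and on day 1 it was 7 and 3. One of them, miR-338-3p, which is known to promote oligodendrocyte differentiation, had its highest log2 level on day 0 replicate 2 (11.53).

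Detection separated the members. miR-34a was detected on 8 of 8 arrays, and miR-34b-5p, miR-34c and miR-449a on 7 of 8 each, all 3 missing only on day 0 replicate 1. Among the 199 tested miRNAs, 66.3% were detected on at least 7 arrays. miR-34b-3p and miR-449c were detected on 1 array each, day 0 replicate 3 in both cases, and miR-449b on 0 of 8. Of the 611 mouse miRNAs, 32.6% were detected on at least 3 arrays and so could be tested.

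**Figure D1:**
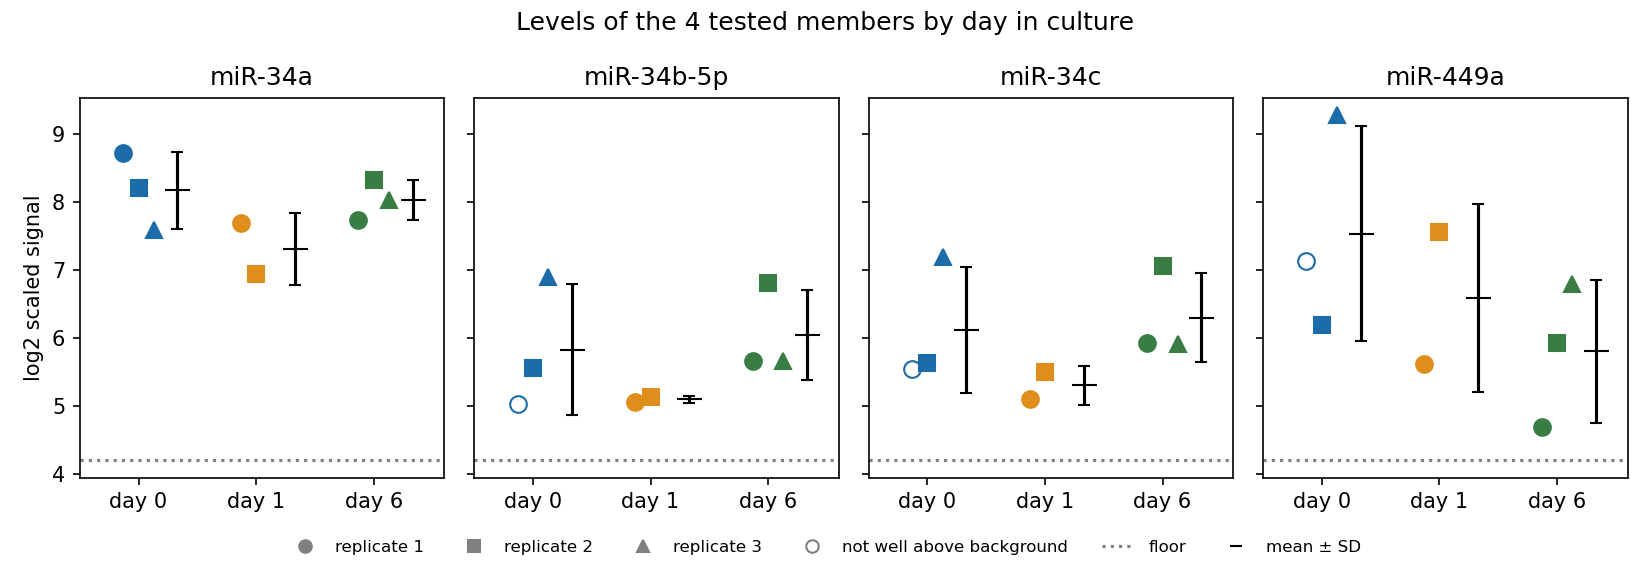
Log2 level of the 4 tested members on each of the 8 arrays, by day, with the mean and SD of each day as a bar, open symbols where the miRNA was not detected and the floor as a dotted line. miR-34b-5p and miR-34c are high on day 0 replicate 3 and day 6 replicate 2, and miR-449a spreads from 4.70 to 9.28.

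In the comparison of mature with immature cultures, none of the 4 tested members passed the test. The limma fit gave 0 of 4 at a Benjamini-Hochberg adjusted p under 0.05 and 0 of 4 at an unadjusted p under 0.05, where 2.01% of the 199 tested miRNAs were called and 24 had an unadjusted p under 0.05. The estimated log2 differences were above 0 for miR-34a, miR-34b-5p and miR-34c and below 0 for miR-449a, with a median of 0.43 over the 4 members and 0.04 over all tested miRNAs. Every 95% confidence interval included 0. No member had levels that did not overlap between the mature and immature arrays, whereas 3.52% of tested miRNAs were higher and 4.02% lower without overlap. A p that misses the threshold does not show that the levels were equal, and the intervals given for each member below show which differences the arrays could not tell from 0.

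mmu-miR-34a, the p53-responsive member with the broadest expression, had log2 levels of 8.73, 8.21 and 7.60 on the 3 day 0 arrays. The day 1 arrays gave 7.69 and 6.94, and the day 6 arrays gave 7.74, 8.32 and 8.04. The lowest level was on day 1 replicate 2 and the highest on day 0 replicate 1. All day 6 levels lay above both day 1 levels, while day 0 overlapped the other days. Before scaling, the signal of its brighter probe ran from 102 to 391. The means were 8.18 ± 0.56 on day 0 (SD, n = 3), 7.32 ± 0.53 on day 1 (SD, n = 2) and 8.03 ± 0.29 on day 6 (SD, n = 3), and the day 0 mean was 7.90 ± 0.43 without replicate 1 (SD, n = 2). Day 6 exceeded the immature arrays by 0.28 on the log2 scale (SE 0.32, 95% interval −0.46 to 1.03, limma adjusted p = 0.818). Without day 0 replicate 1 that difference was 0.42, and with no scaling between arrays it was −0.055. Against day 0 alone the log2 difference was −0.15 (95% interval −0.97 to 0.68), and 0.13 without day 0 replicate 1, and 0.19 or 0.36 when scaled to all mouse probes or to control probes.

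miR-34b-5p, the 5′ arm of the p53-responsive miR-34b hairpin, had log2 levels of 5.03, 5.56 and 6.90 on day 0, the first not detected. Its day 1 levels were 5.07 and 5.14, and its day 6 levels were 5.67, 6.82 and 5.67. Day 0 replicate 3 and day 6 replicate 2 stood above the other 6 arrays, and the day 6 levels lay above both day 1 levels. Before scaling, the signal ran from 29.2 to 171 over the 8 arrays. The means were 5.83 ± 0.97 on day 0 (SD, n = 3), 5.10 ± 0.05 on day 1 (SD, n = 2) and 6.05 ± 0.66 on day 6 (SD, n = 3), and the day 0 mean was 6.23 ± 0.95 without replicate 1 (SD, n = 2). The day 6 level was 0.59 above the immature level on the log2 scale (SE 0.46, 95% interval −0.48 to 1.65, limma adjusted p = 0.686). It was 0.38 without day 0 replicate 1, and 0.85 without day 0 replicate 3 (limma adjusted p = 0.413). Among single arrays left out, day 6 replicate 2 moved it most, to 0.20. Weighting the arrays gave 0.20 as well, and scaling to control probes gave 1.13. Against day 0 alone the log2 difference was 0.22 (95% interval −0.96 to 1.40), −0.18 when day 0 replicate 1 was left out, 0.76 when day 0 replicate 3 was, and −0.26 if the arrays were not scaled.

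mmu-miR-34c, which shares its transcript with miR-34b, had log2 levels of 5.55, 5.63 and 7.19 on day 0, the first not detected. Day 1 gave 5.11 and 5.51, whereas day 6 gave 5.94, 7.06 and 5.92. The same 2 arrays, day 0 replicate 3 and day 6 replicate 2, were the highest, and both day 1 levels lay below every other level. Before scaling, its signal ran from 37.7 to 209. The means were 6.12 ± 0.92 on day 0 (SD, n = 3), 5.31 ± 0.28 on day 1 (SD, n = 2) and 6.31 ± 0.65 on day 6 (SD, n = 3), and without replicate 1 the day 0 mean was 6.41 ± 1.10 (SD, n = 2). Day 6 was 0.59 above the immature arrays on the log2 scale (SE 0.46, 95% interval −0.46 to 1.64, limma adjusted p = 0.677), 0.45 without day 0 replicate 1 and 0.86 without day 0 replicate 3 (limma adjusted p = 0.413). Among single arrays left out, day 6 replicate 2 moved it most, to 0.21. Weighting the arrays gave 0.25, and the highest value over all alternatives was 1.13. Against day 0 alone it was 0.18 on the log2 scale (95% interval −0.98 to 1.34), −0.11 when day 0 replicate 1 was left out, 0.71 when day 0 replicate 3 was, and −0.30 if the arrays were not scaled.

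mmu-miR-449a, the member made from the Cdc20b locus, had log2 levels of 7.14, 6.19 and 9.28 on day 0, the first not detected. The day 1 cultures gave 5.62 and 7.57, and the day 6 cultures gave 4.70, 5.93 and 6.80. The highest level was on day 0 replicate 3 and the lowest on day 6 replicate 1, and the days overlapped. Before scaling, the signal ran from 23.6 on day 6 replicate 1 to 892 on day 0 replicate 3. The means were 7.54 ± 1.58 on day 0 (SD, n = 3), 6.59 ± 1.38 on day 1 (SD, n = 2) and 5.81 ± 1.05 on day 6 (SD, n = 3), and without replicate 1 the day 0 mean was 7.74 ± 2.18 (SD, n = 2). The day 6 level differed from the immature level by −1.26 on the log2 scale (SE 0.80, 95% interval −3.09 to 0.58, limma adjusted p = 0.570), by −1.35 without day 0 replicate 1 and by −0.82 without day 0 replicate 3. Against day 0 alone the log2 difference was −1.73 (95% interval −3.76 to 0.31, limma adjusted p = 0.429), −1.93 without day 0 replicate 1 and −0.86 without day 0 replicate 3. In bulk RNA, fewer cells of a type and less RNA per cell cannot be told apart.

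**Figure D2:**
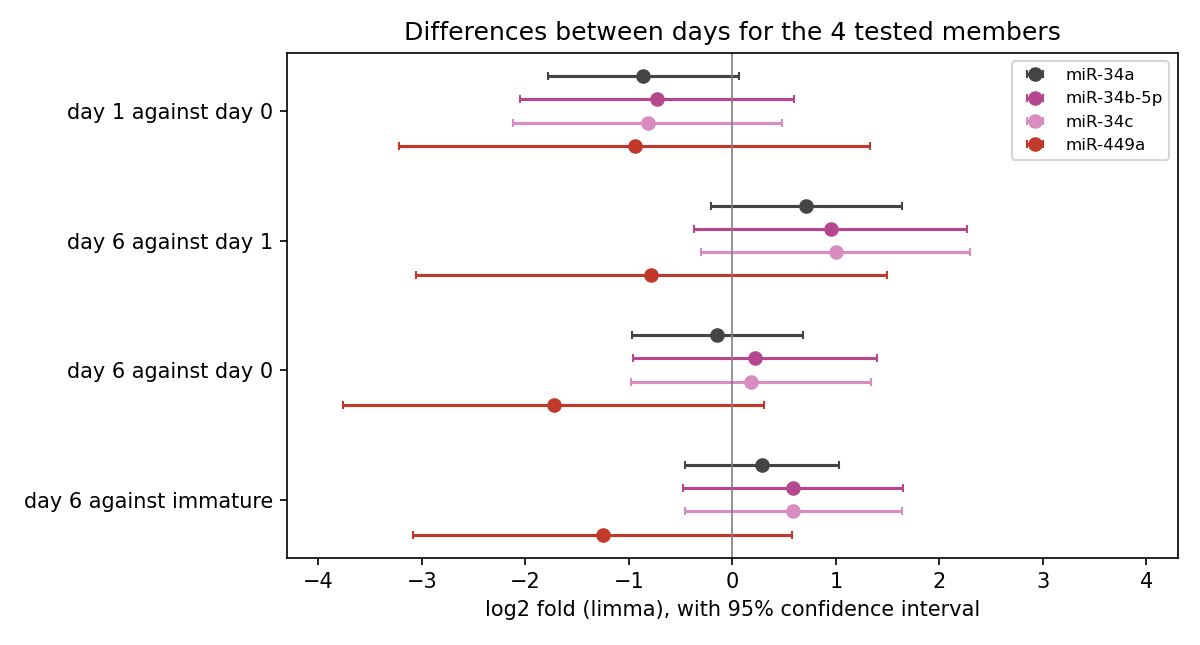
Log2 difference with its 95% confidence interval for the 4 tested members in each comparison of days, from the limma fit on all 8 arrays. Every interval includes 0, and those of miR-449a are the widest.

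The comparisons between single days gave no call among the members either. Between day 6 and day 0, limma with Benjamini-Hochberg adjustment called 0 of 4 members and 4.02% of all tested miRNAs. An unadjusted p under 0.05 was found for 27 of the 199 and for 0 of 4 members. The levels of all 4 overlapped between those days, where 10.6% of tested miRNAs were higher and 6.03% lower without overlap. Between day 6 and day 1 it called 0 of 4 members and 0% of all, and 0 of 4 members but 17 of the 199 had an unadjusted p under 0.05. The log2 differences in that comparison were 0.72 for miR-34a (95% interval −0.21 to 1.64), 0.95 for miR-34b-5p (−0.37 to 2.27), 1.00 for miR-34c (−0.30 to 2.30) and −0.78 for miR-449a (−3.06 to 1.49). The levels of the first 3 did not overlap between these days, all higher on day 6, where 10.1% of tested miRNAs were higher and 17.1% lower without overlap. For miR-34a and miR-34b-5p this depended on the scaling. Before scaling, miR-34a gave 193 and 190 on day 6 replicates 1 and 3, below 241 on day 1 replicate 1. The unscaled signal of miR-34b-5p was 36.7 on day 6 replicate 3, below 39.0 on day 1 replicate 1. Only miR-34c stayed apart without scaling. Groups of 3 and 2 arrays limit what such a separation shows.

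Between day 1 and day 0, limma with the same adjustment called 0 of 4 members and 1.51% of all tested miRNAs. An unadjusted p under 0.05 was found for 16 of the 199 and for 0 of 4 members. All 4 estimates lay below 0, at −0.86 for miR-34a, −0.73 for miR-34b-5p, −0.82 for miR-34c and −0.95 for miR-449a on the log2 scale. Their median was −0.84, beside −0.06 over all tested miRNAs, of which 43.7% had an estimate above 0. Only miR-34c had levels that did not overlap, lower on day 1, where 3.02% of tested miRNAs were lower and 10.1% higher without overlap, and 1 of its day 0 levels was not detected. Without day 0 replicate 3 the 4 log2 differences were −1.15, −0.19, −0.28 and −0.07 in the same order of members. Without day 0 replicate 1 they were −0.59, −1.13, −1.10 and −1.14. When the arrays were scaled over all mouse probes they were −0.19, −0.36, −0.27 and −0.27, and the median of all tested miRNAs moved to 0.41.

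The members differed in how far they spread over the 8 arrays. The range of miR-449a was 4.58 on the log2 scale, a 23.9-fold range, which ranked 2 among the 199 tested miRNAs by size, after miR-714 at 5.40. Without day 0 replicate 3 its range was 2.87, or 7.29-fold, at rank 10. The ranges of the others were 2.08 for miR-34c (rank 41), 1.87 for miR-34b-5p (rank 53) and 1.79 for miR-34a (rank 60), and the median range was 1.33. Within days, the standard deviation was 1.35 for miR-449a (rank 5), 0.74 for miR-34b-5p, 0.73 for miR-34c and 0.47 for miR-34a, beside a median of 0.43.

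**Figure D3:**
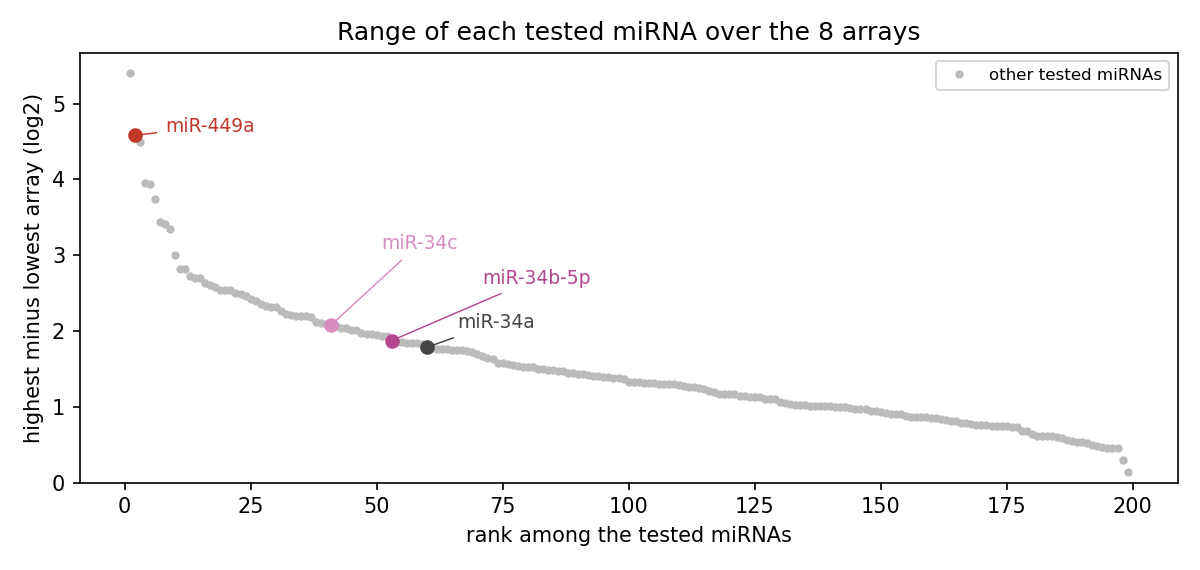
Range of log2 levels over the 8 arrays for the 199 tested miRNAs, sorted by size, with the 4 family members marked. miR-449a, with a range of 4.58, lies at rank 2, and the other 3 members at ranks 41 to 60.

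Most of the tested members had their highest level on the same array. miR-34b-5p, miR-34c and miR-449a each had their highest level of the 8 arrays on day 0 replicate 3, as did 10.1% of all tested miRNAs. On day 6 replicate 2, miR-34b-5p and miR-34c were nearly as high, at 6.82 and 7.06 against 6.90 and 7.19. Among the 5 immature arrays alone, which leave that array out, both stood apart on day 0 replicate 3 by Dixon's test. So did 2.01% of tested miRNAs, and 13.6% had some array standing apart at either end. Day 0 replicate 3, which detected the most miRNAs (218), also gave the only detections of miR-34b-3p and miR-449c. The miR-34b-3p signal there was 31.5 before scaling, a log2 level of 4.46, and on day 0 replicate 1 it was 7.34 but not well above background. miR-449c reached 19.4 before scaling on day 0 replicate 3 for 1 of its 4 probes, which after scaling fell below the floor. The highest unscaled signal of any miR-449b probe was 3.99, also on day 0 replicate 3, and was not detected.

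The 2 members of the shared transcript moved together over the arrays. Pearson's r of miR-34b-5p with miR-34c was 0.98 and Spearman's rho 0.93 over n = 8 arrays, with exact two-sided permutation p-values of 0.000273 and 0.00223 and Benjamini-Hochberg adjusted values of 0.00164 and 0.0134 over 6 pairs. Leaving out the 2 arrays farthest from the median of miR-34b-5p gave r = 0.83, leaving out day 0 replicate 1 gave 0.99, and the deviations from the day means gave 0.97. The other 5 pairs had r from −0.22 to 0.40, each with an adjusted exact permutation p of 0.876. The arrays share depth and labelling, which a correlation over them also reflects. Whether probes of miR-34b-5p also bound miR-34c, or the reverse, was not tested.

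**Figure D4:**
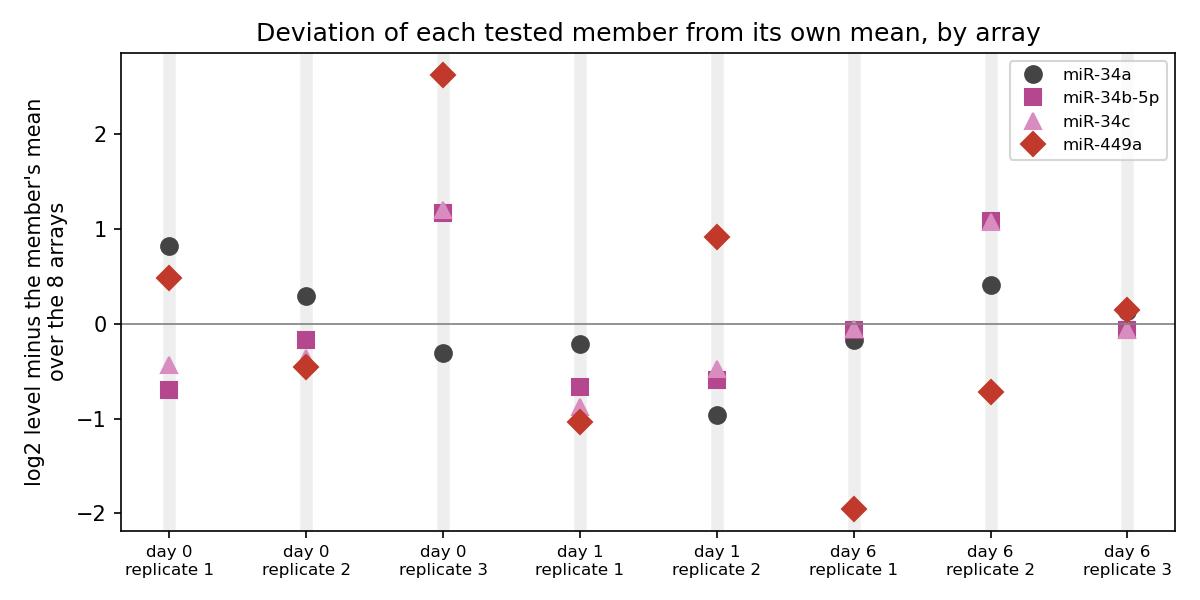
Log2 level of each tested member minus that member's own mean over the 8 arrays (vertical axis), by array (horizontal axis). miR-34b-5p and miR-34c lie on the same side of 0 on every array and highest on day 0 replicate 3, where miR-449a is highest too.

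The miRNAs most like each member were found as the highest Pearson correlations over the 8 arrays among 139 candidates detected on at least 6 arrays, with family members and star strands left out, and are given as a description with no test. For miR-34a they were miR-29c (r = 0.85), miR-29a (0.83) and miR-350 (0.77). For miR-449a they were miR-99a (0.83), miR-410 (0.81) and miR-127 (0.80). miR-34b-5p was nearest to miR-379 (0.70), miR-130a (0.54) and miR-30a (0.51), and miR-34c to miR-379 (0.60), miR-125b-5p (0.56) and miR-100 (0.55). Without the 2 arrays farthest from the member's median, r with miR-34a was 0.69 for miR-29c, 0.54 for miR-29a and 0.18 for miR-350. With miR-449a it was 0.90 for miR-99a, 0.56 for miR-410 and 0.64 for miR-127, and it was 0.22 for miR-379 with miR-34b-5p and −0.21 with miR-34c.

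**Figure D5:**
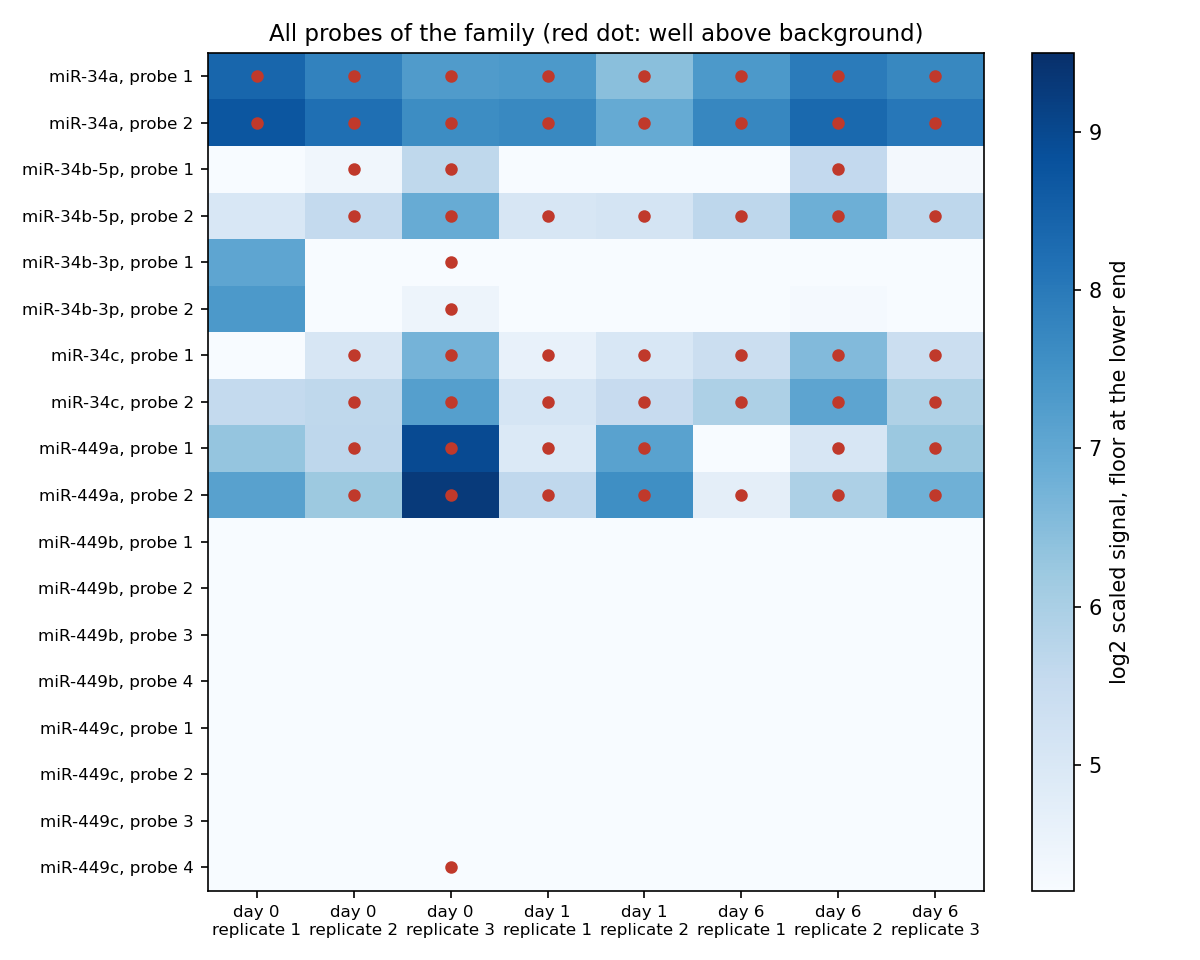
Log2 level of every probe of the 7 members (rows) on each of the 8 arrays (columns), as shades of blue, with a red dot where the probe was detected. Both probes of miR-34a are darkest on day 0 replicate 1, both probes of miR-34b-5p, miR-34c and miR-449a on day 0 replicate 3, and those of miR-449b and miR-449c lie at the floor.

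The second probe of each tested member was dimmer. On arrays where both probes were detected, the gap on the log2 scale ran from 0.32 to 0.49 for miR-34a (8 arrays), from 1.19 to 1.27 for miR-34b-5p (3 arrays), from 0.48 to 0.56 for miR-34c (7 arrays) and from 0.34 to 0.89 for miR-449a (6 arrays). The probes disagreed in the log2 difference of day 6 from day 0 for miR-34b-5p, at −0.037 for the dimmer against 0.22, where the dimmer lay at the floor on 3 arrays. For miR-34c that difference was 0.45 for the dimmer against 0.18.

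Other miRNAs that respond to p53 were listed for comparison, 8 of them on the arrays. Of these, 4 were tested (miR-107, miR-143, miR-15a and miR-16). In each of the 4 comparisons limma called 0 of these 4, beside 0% to 4.02% of all tested miRNAs, so the count does not set them apart. Their median log2 difference of day 6 from the immature arrays was 0.16, beside 0.04 over all tested miRNAs. The highest was that of miR-143 at 1.05, whose 5 immature levels were all set to the floor (limma adjusted p = 0.340). It was also at the floor on day 6 replicate 3, and at 5.28 and 6.27 on day 6 replicates 1 and 2. miR-143 was on the list of fibroblast and mural cell markers too. Of that list, miR-199a-3p (7.30 and 7.86) and miR-214 (4.63 and 5.32) were also highest on those arrays, while miR-145 was not detected. Which cells carried miR-143 was not tested. miR-145, miR-194 and miR-215 were detected on 0 arrays and miR-192 on 1.

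Markers of the ependyma and choroid plexus, the brain cells in which miR-449 is abundant, were also read, as 7 miRNAs on the arrays. miR-204 was the only one tested, at log2 levels of 8.16, 4.40 and 6.49 (day 0), 5.34 and 6.20 (day 1) and 4.24, 5.25 and 4.20 (day 6). It differed by −1.50 between day 6 and the immature arrays on the log2 scale (limma adjusted p = 0.475), and by −1.04 without day 0 replicate 1. miR-211 was detected on 1 array, day 0 replicate 1, and miR-200a, miR-200b, miR-200c, miR-141 and miR-429 on 0 arrays. The log2 of the list's summed level ran from 7.04 to 9.92 for day 0 (7.04 to 7.65 without replicate 1), from 7.24 to 7.53 for day 1, and for day 6 from 7.01 to 7.22. Day 0 replicate 1 carried the top of that range, with miR-211 at a log2 level of 9.15 and miR-204 at 8.16, both detected. There miR-429 also counted, at 5.50, though not detected. In the sum each miRNA below the floor counted at the floor. Outside day 0 replicate 1 only miR-204 was ever detected, so the other sums were that miRNA and floor values. The part of these cells in the miR-449a levels was not tested. Of the neuron, microglia and fibroblast lists, 5 of 6, 5 of 5 and 2 of 4 miRNAs were tested. In any comparison 0 of them were called, beside 0% to 4.02% of all tested miRNAs. The unadjusted limma p was under 0.05 for miR-146a (microglia) between day 6 and day 0. It was also under 0.05 for miR-143 (fibroblast) between day 6 and the immature arrays. By comparison, 16 to 27 of the 199 tested miRNAs had such a p. The 7 oligodendrocyte miRNAs gave 0 calls too, with 0 at an unadjusted limma p under 0.05 in any comparison. Beside those rates, such counts do not set so short a list apart. The log2 differences of the other lists are not given here. The log2 differences of the 7 oligodendrocyte miRNAs between day 6 and the immature arrays ran from 0.07 to 1.32, with a median of 0.19. The highest was that of miR-338-3p (limma adjusted p = 0.723).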

How the data were processed

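miRNA levels were measured in 8 cultures on 1-colour Agilent arrays, 13715 spots each, of which 13000 were not controls and held 1857 probes for 650 miRNAs. The deposited values are Cy3 spot intensities, the processed signal written by Agilent Feature Extraction 9.5, per the file headers; the deposited series table held the same intensities (largest difference 0; column medians −6.93, 2.90, 3.28, 3.13, 0.768, 2.83, 1.74 and 1.78), so it gave no alternative. Outlier spots were left out and the remaining spots of a probe averaged. Signals were divided by each array's 75th percentile, taken over 91 probes that every array detected, relative to the geometric mean of these percentiles, set to a floor at the 5th percentile of detected signals (18.4) and taken to log2. A miRNA took the probe with the highest mean log2 level and was detected where any of its probes was. Tests ran on 199 mouse miRNAs, those found on 3 or more arrays, with limma 3.58 in R 4.3, with 1 mean per day over all 8 arrays and Benjamini-Hochberg adjustment over the 199 at 0.05; the other 412 were not tested. The immature group was the mean of day 0 and day 1 with equal weight per day. Intervals are at 95%. All 8 arrays lay on 1 slide and in 1 scan, so neither could differ between days. The fit was tested on simulated data. Data were read with the R package data.table (version 1.17), and plots drawn with Python 3.11 and matplotlib 3.10. Named miRNAs were every tested member, every tested miRNA of the p53 list and the 3 most alike each member. The members and lists were chosen with earlier results of these data known. Alternatives covered scaling, background, probe summary, floor, filter, blocks, weights and leaving out each array. The number of arrays limits the precision.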

Additional observations from a re-analysis of the deposited data

Results flagged for a closer look

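Among the 5 immature arrays, 3 levels stood apart from the rest by Dixon's test at the 95% level, which sets the gap to the nearest array against the whole range. miR-34b-3p stood at a log2 level of 7.34 on day 0 replicate 1, with a gap of 0.918 of the range, and was not well above background there. Its other immature levels were at the floor of 4.20, except 4.46 on day 0 replicate 3, so the 95% level does not hold for it. miR-34b-5p stood at 6.90 on day 0 replicate 3 (0.715), and miR-34c at 7.19 on the same array (0.748). The level of miR-449a on that array, 9.28, did not stand apart (0.468). Chance flags about 1 in 20 groups where no level is set to the floor. Of the 199 tested miRNAs, which leave out miR-34b-3p, 13.6% had an array standing apart at either end. Day 0 replicate 3 stood apart as the highest for 2.01%.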

How the results depend on the processing

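Under 26 alternatives, 0 of the members were called in any of the 4 comparisons, and 17 of 388 comparisons of a log2 difference with its alternative changed sign. An unadjusted p under 0.05 arose in 18 of them, the lowest 0.0104 by limma for miR-34a between day 6 and day 1 when scaled to control probes (adjusted p = 0.138). The cause of the sign changes was not tested. For miR-34a between day 6 and day 0 the difference was 0.19 with scaling over all mouse probes, 0.36 if scaled to control probes, 0.0056 if arrays were weighted, and −0.43 to 0.13 with each array left out in turn. Between day 6 and the immature arrays it was −0.055 with no scaling. For miR-34b-5p between day 6 and day 0 it was −0.26 with no scaling, −0.37 with array weights, and −0.18 to 0.76 with each array left out. For miR-34c it was −0.30, −0.32, and −0.20 to 0.71. For miR-449a, leaving out each array gave −1.92 to 0.029 between day 1 and day 0, and −1.76 to 0.19 between day 6 and day 1. The sign turned without day 0 replicate 1 or day 6 replicate 1 for miR-34a, without day 0 replicate 1 or day 6 replicate 2 for miR-34b-5p, and for miR-34c when any 1 of day 0 replicates 1 and 2 and day 6 replicate 2 was left out. For miR-449a it turned without day 1 replicate 1 in the first comparison and without day 1 replicate 2 in the second. The scaling to control probes, the array weights, a block for the row of the slide and the scanner software's summed signal were chosen after seeing the data. No scaling moved the median of all tested miRNAs between day 6 and the immature arrays to −0.28 (family 0.095), and control probes moved it to 0.55 (family 0.98). The count of all tested miRNAs called in that comparison was 4, and ran from 0 to 17 over the alternatives, with 11 without day 0 replicate 1 and 0 without day 0 replicate 2 or replicate 3, or without day 6 replicate 1 or replicate 2. Over the alternatives it ran from 1 to 16 between day 6 and day 0 (8 as reported), from 0 to 9 between day 6 and day 1 (0), and from 1 to 4 between day 1 and day 0 (3). Requiring detection on all 8 arrays left only miR-34a to test, among 53 miRNAs. Deviations of samples with the same replicate number correlated at r from −0.71 to 0.32 over 7 pairs, against −0.32 to 0.71 over 14 other pairs. Deviations from the means of so few arrays constrain each other, so these values cannot decide whether the numbers pair the samples. The reported fit did not pair them. With the replicate number as a block, 0 members were called, and the limma difference of miR-449a between day 6 and the immature arrays was −1.60 (adjusted p = 0.373). The noise of day 0 replicate 1 limits what can be said of members near background.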

Other observations

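The scanner software also writes its own detection call and summed signal for each miRNA, which were not used for the levels. It detected miR-34b-3p on 4 arrays (day 0 replicates 1 and 3, day 1 replicate 2 and day 6 replicate 2), with summed signals of 180.3, 35.8, 14.2 and 19.7, against 3.20 to 10.4 on the other 4. The star strand of miR-34c, which is not a member by the naming rule, was detected on 1 array, day 0 replicate 3, with a summed signal of 13.3. The same array gave the highest summed signal of miR-449a, 1102, against 25.9 to 183.7 on the other 7.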
